A study of Mus musculus with 6 samples.

Results

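The collagen genes of the mouse were followed in cultured cerebellar granule cells (GCs) after knockdown (KD) of YTHDF2. Members were the rows of the deposited count table whose Ensembl identifier belongs, in the annotation of GRCm38, to a protein-coding gene with a symbol of the form Col, a number, the letter a and a number. There were 44 such genes among 53421 rows, and 38 of them passed the filter on low counts that left 17214 genes for testing. The other 6, Col4a3, Col6a5, Col10a1, Col22a1, Col24a1 and Col25a1, were too low to be tested, and Col21a1 had no row that could be matched. The members fall into 8 classes by the structures that their proteins build, and each class is described in turn.

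All 6 libraries were made from GCs of C57BL/6 pups labelled as postnatal day 8, freed of meninges, cultured, infected with lentivirus and selected with puromycin, so the controls had also been infected and selected. The 3 shYthdf2 libraries carried a short hairpin RNA against Ythdf2, which lowers the transcript and does not delete the gene, and the library names give a single hairpin, number 3. The 3 shCtrl libraries carried a control hairpin. Both groups have replicates 1, 2 and 4, and values are always listed in that order. Groups were taken from the library names. The sample titles and the genotype field call the same libraries the other way round, and every direction below would be inverted if the titles were right. Ythdf2 itself had 499.6, 401 and 499.7 normalized counts after YTHDF2 KD and 617, 839 and 627 in shCtrl, with no overlap (log2 fold change -0.57, standard error 0.16, adjusted p = 0.125). Adjusted p stands throughout for the Benjamini-Hochberg value over all genes of a quasi-likelihood fit in edgeR, unless another tool is named, and normalized counts are counts scaled to a common library size by the TMM method.

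Collagens are secreted or membrane-bound proteins whose chains wind into a triple helix of glycine-rich repeats. Fibril-forming collagens give tissues tensile strength, type IV collagen is the network of every basement membrane, and other classes link, coat or anchor these structures. In brain most fibrillar and type IV collagen is made by the cells of the meninges and vessels, while neurons and glia make certain members, and YTHDF2 is a reader of N6-methyladenosine (m6A) in mRNA that directs its targets to decay.

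The start regions of 4 members are given because they were among the 7 members with the highest levels and all were higher in replicate 2 of both groups, as described further on. Col4a1 and Col4a2, which encode the chains of the most widespread type IV trimer, lie head to head on chromosome 8, and their annotated spans overlap by 22 bases. Each window runs from 250 bases before to 50 bases after the RefSeq start on GRCm38.p6, on the strand of the gene, and the windows of the pair share 78 bases. Capitals mark the CCAAT box, the GC box (GGGCGG) and the TATA box (TATAAA) on either strand.
Col4a1, chr8:11312777-11313076, minus strand: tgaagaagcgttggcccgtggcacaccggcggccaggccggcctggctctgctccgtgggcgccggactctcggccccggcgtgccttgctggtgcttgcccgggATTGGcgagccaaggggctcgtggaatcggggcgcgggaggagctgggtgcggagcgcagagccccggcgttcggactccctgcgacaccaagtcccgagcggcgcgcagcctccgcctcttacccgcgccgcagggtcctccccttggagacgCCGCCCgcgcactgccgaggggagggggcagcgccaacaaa
Col4a2, chr8:11312555-11312854, plus strand: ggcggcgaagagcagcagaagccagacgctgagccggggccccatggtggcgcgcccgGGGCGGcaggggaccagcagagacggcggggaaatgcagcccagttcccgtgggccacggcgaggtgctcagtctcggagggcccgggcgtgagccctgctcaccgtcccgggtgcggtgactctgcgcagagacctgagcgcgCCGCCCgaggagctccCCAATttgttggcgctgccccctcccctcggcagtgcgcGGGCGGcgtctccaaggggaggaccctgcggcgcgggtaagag
Col1a2, chr6:4505368-4505667, plus strand: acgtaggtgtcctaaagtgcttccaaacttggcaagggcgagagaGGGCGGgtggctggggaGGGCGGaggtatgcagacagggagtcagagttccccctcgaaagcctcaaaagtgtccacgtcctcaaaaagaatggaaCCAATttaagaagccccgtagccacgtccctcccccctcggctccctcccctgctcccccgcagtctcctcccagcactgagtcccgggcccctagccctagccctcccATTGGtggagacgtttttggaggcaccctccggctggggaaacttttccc
Col3a1, chr1:45311288-45311587, plus strand: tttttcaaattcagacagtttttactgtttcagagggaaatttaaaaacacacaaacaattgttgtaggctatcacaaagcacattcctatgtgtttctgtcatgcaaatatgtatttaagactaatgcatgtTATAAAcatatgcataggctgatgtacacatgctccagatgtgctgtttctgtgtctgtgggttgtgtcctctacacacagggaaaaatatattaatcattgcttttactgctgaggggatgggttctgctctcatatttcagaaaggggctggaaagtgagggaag

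The windows of Col4a1 and Col4a2 each held 1 CCAAT, with 1 and 3 matches to GGGCGG. The Col1a2 window held 2 of each, and the Col3a1 window held neither but 1 TATAAA. RefSeq windows were at hand for 35 of the 44 members, 38 windows in all. CCAAT, searched on both strands, was found in 13 of them (34.2%, against 37.4% of all 32851 windows of the same length). GGGCGG was found in 23 (60.5% against 35.7%), TATAAA in 5 (13.2% against 13.6%) and TGANTCA, the AP-1 letters, in 1 (2.63% against 7.81%). These are matches of letters and were not tested as binding sites.

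The libraries held 17246821 to 21546595 counts, and collagen genes took 0.0544% to 0.126% of them. Within each group replicates 1 and 4 lay close together and replicate 2 stood apart. Over all genes, the difference between replicates 1 and 4 amounted to a mean chi-square of 3.34 per gene in shYthdf2 and 4.68 in shCtrl, where counting noise alone gives about 1. The medians over genes were lower, 0.725 and 0.736. Replicates 1 and 4 were kept as separate libraries, but a mean above 1 cannot show that they were separate cultures. Over the collagen genes the mean was 0.787 and 1.74, whereas replicate 2 differed from replicate 1 by 129 and 130.1. The collagen genes of replicates 1 and 4 of shYthdf2 thus differed by less than sampling noise, and fits with replicates 1 and 4 of each group summed to 1 library are given beside the counts for YTHDF2 KD and for replicate 2. No such fit is possible for the interaction described further on, since it leaves no residual degrees of freedom. The labels do not say whether replicates 1 and 4 came from separate cultures, so p-values may measure technical spread. Granule cell markers were abundant in every library, with Zic1 at 55222 to 70121 counts. Markers of other cell types were present as well.

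The highest collagen levels were those of the fibrillar chains Col1a1 and Col3a1, of Col18a1 and of the type IV pair Col4a1 and Col4a2. Levels between genes are compared per length, as TMM-scaled counts at a library size of 1000000 (CPM) per kilobase of annotated exon, with the SD over 3 libraries. Col1a1, the main chain of type I collagen, had the highest mean level, 14.8 ± 9.06 after YTHDF2 KD and 13.4 ± 7.91 in shCtrl. Col3a1, the chain of the fine fibrils of soft tissue, followed with 10.8 ± 6.38 after YTHDF2 KD and 8.23 ± 6.66 in shCtrl. Next stood Col18a1, a basement membrane collagen whose end is cut off as endostatin, with 10.1 ± 5.59 after YTHDF2 KD and 6.92 ± 3.43 in shCtrl. Replicate 2 was the highest library of each group for all 3, and made up most of these SDs. Within libraries Col1a1 was above Col3a1, Col4a1 above Col4a2 and Col1a2 above Col6a1 in 6 of 6, while the other neighbours among the 10 highest changed order between libraries.

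Col4a1 reached 9.30 ± 4.79 after YTHDF2 KD and 7.09 ± 2.89 in shCtrl, and its partner Col4a2 8.38 ± 4.65 after YTHDF2 KD and 5.88 ± 1.93 in shCtrl. Col9a3, a chain of type IX collagen that decorates other fibrils, came sixth with 6.43 ± 1.98 after YTHDF2 KD and 6.20 ± 1.92 in shCtrl. Col1a2, the second chain of type I, had 7.18 ± 3.94 after YTHDF2 KD and 5.16 ± 3.37 in shCtrl, and Col6a1, a chain of the beaded filaments that surround many cells, 6.41 ± 3.75 after YTHDF2 KD and 4.19 ± 2.82 in shCtrl. Col11a2, a chain of the fibrils of cartilage, had 3.03 ± 0.954 after YTHDF2 KD and 4.41 ± 2.05 in shCtrl, and Col20a1 3.42 ± 1.23 after YTHDF2 KD and 3.58 ± 2.06 in shCtrl. With the length of the longest transcript in place of all exons, 9 of these 10 stayed among the top 10 and Col3a1 moved to first place. Col1a2 moved from rank 7 to rank 3, with a mean over all libraries of 14.3 in place of 6.17, beside 15.6 for Col1a1.

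By class, the fibril-forming chains made up 36.6% to 45.9% of the summed collagen level of a library. Fibril-associated collagens, which sit on the surface of fibrils, made up 11.4% to 27.2%, with the lowest shares in the replicate 2 libraries (11.4% and 17.5%). Type IV chains held up to 20.1%, multiplexins 6.71% to 10.4% and type VI chains 4.64% to 9.28%. The 6 untested members held few counts. Their counts per library were 1 to 8 for Col4a3, 1 to 4 for Col10a1, a marker of hypertrophic cartilage, and 2 to 13 for Col25a1, a neuronal transmembrane collagen. They were 0 to 12 for Col6a5, 4 to 13 for Col22a1 and 3 to 9 for Col24a1.

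**Figure D1:**
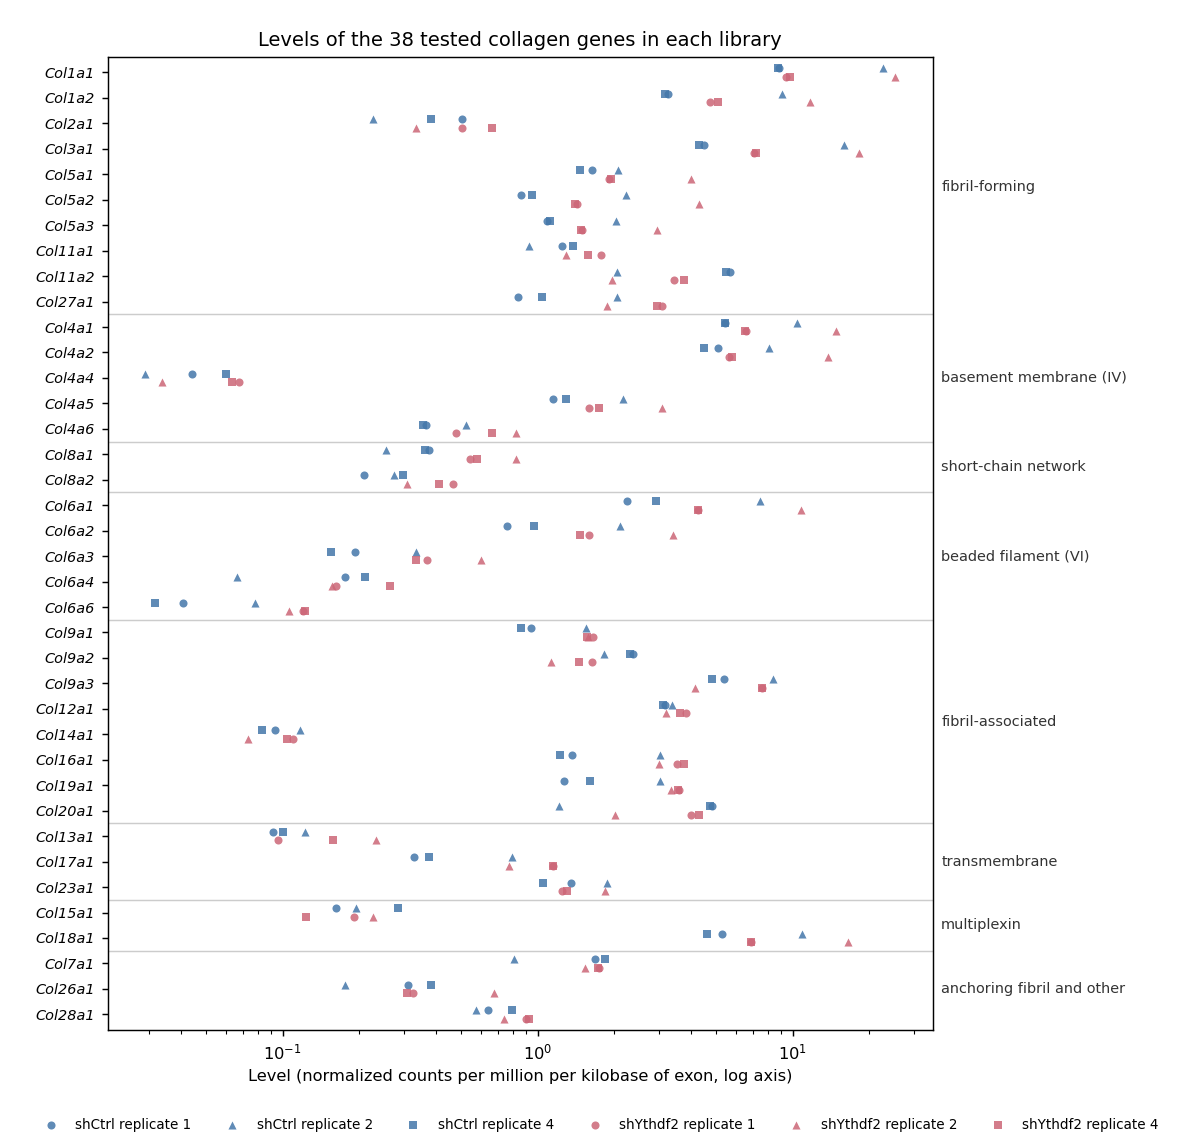
Level of each tested collagen gene in each library, as CPM per kilobase of exon on a log axis, by class, where blue points are shCtrl and red points shYthdf2, with circles, triangles and squares for replicates 1, 2 and 4. The triangles of replicate 2 lie to the right of the other libraries for Col1a1, Col1a2, Col3a1, Col4a1, Col4a2, Col6a1 and Col18a1, and to the left for Col11a2 and Col20a1.

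After YTHDF2 KD no collagen gene passed the adjusted threshold of 0.05 in edgeR's quasi-likelihood test, 0 of 38 members against 0.604% of all genes tested. limma-voom also called 0, and DESeq2 called 2 as higher, Col27a1 and Col8a1 (3.15% of all genes). An unadjusted p under 0.05 was reached by 8 members (21.1%), 7 of them higher and 1 lower after YTHDF2 KD, a share near that of all genes, where 20.1% of all genes reached it (9.50% higher and 10.6% lower). The 7 were Col8a1, Col6a6, Col27a1, Col17a1, Col19a1, Col16a1 and Col6a3, and the other was Col9a2. The fitted fold change was above 0 for 33 of 38 members, 86.8% (50.8% of all genes), and the median log2 fold change was 0.48 for the members and 0.0082 for all genes. It was 0.43 over the 65 tested cell type markers that are described further on. By list that median ran from -0.22 (Purkinje cells) and 0.054 (granule cells) to 0.82 (endothelial cells) and 1.47 (microglia). Fibroblasts and meninges had 0.71 and mural cells 0.50. Within each pair of libraries with the same number, shYthdf2 was the higher one in all 3 pairs for 24 members, 63.2% of them (27.0% of all genes) and the lower one for 2 (26.9%). A different number of collagen-making cells and a different amount of collagen RNA per cell cannot be told apart in these bulk libraries.

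The count depended on how replicate 2 was treated. The libraries with the same number deviate together, and with the replicate number as a block 0 members passed the adjusted threshold (1.35% of all genes) and 22 passed the unadjusted one (31.6%). Of the 22, 20 were higher (15.4%) and 2 lower (16.3%). With a batch term for replicate 2 beside the group, 18 members (47.4%) passed the adjusted threshold, against 22.1% of all genes, 16 of them higher (10.4%) and 2 lower (11.6%). Without replicate 2 of shCtrl, 7 members passed, all of them higher (9.42%), and without replicate 2 of both groups 27 of 37 did (52.7%), 24 higher (25.8%) and 3 lower (27.0%). In that last fit the spread comes only from replicates 1 and 4. With replicates 1 and 4 of each group summed, 0 of 40 members passed (0.00% of all genes), and 1, Col8a1, was higher at an unadjusted p under 0.05 (2.35%).

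**Figure D2:**
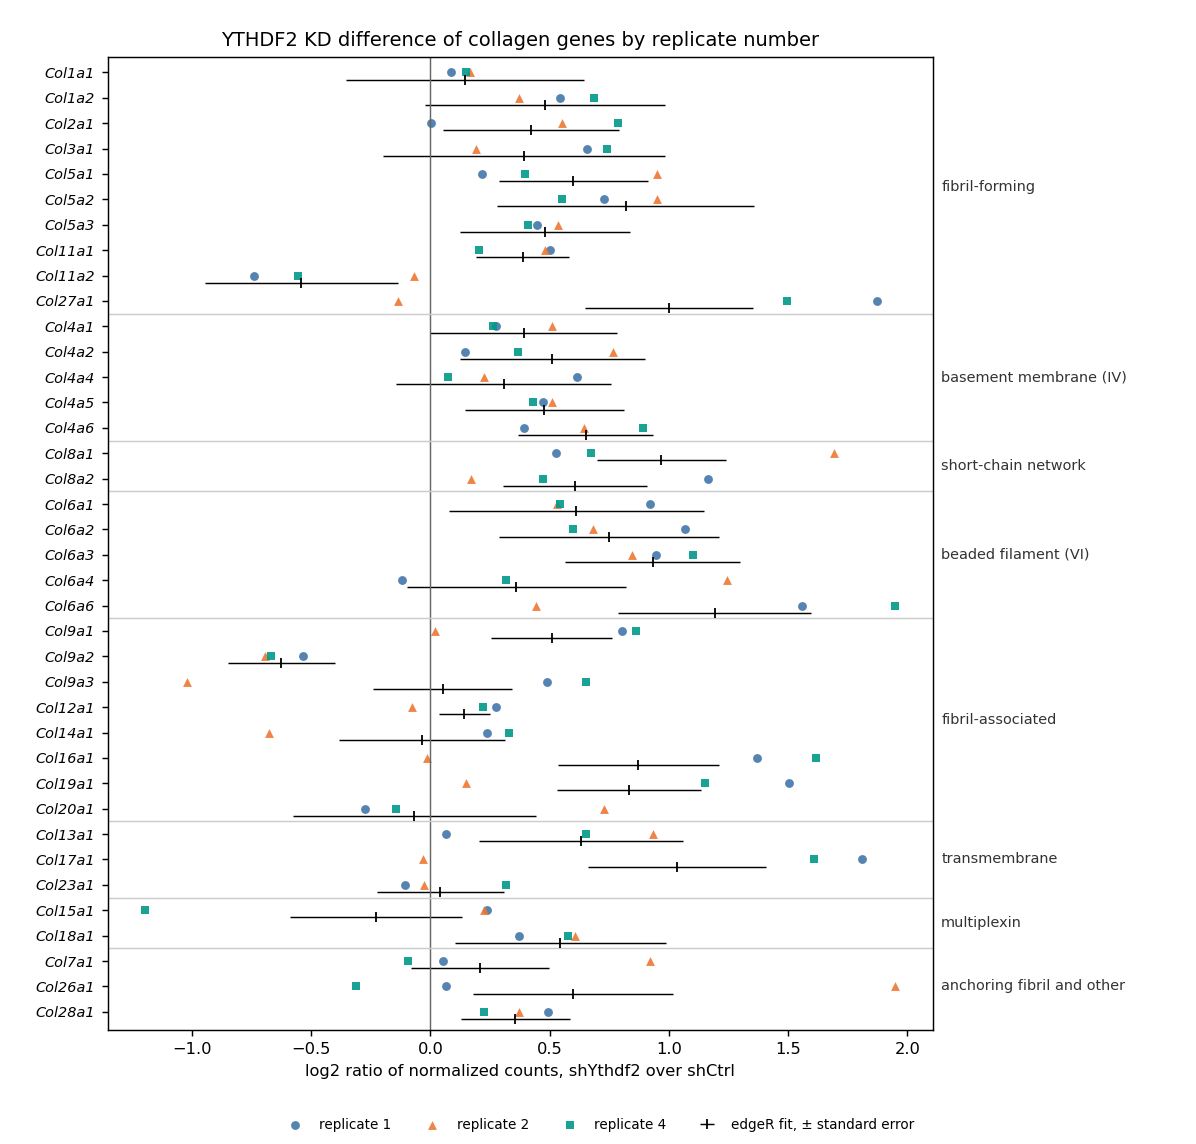
log2 ratio of normalized counts, shYthdf2 over shCtrl, for each tested collagen gene, with 1 point for each replicate number and, in black, the edgeR estimate with its standard error. Col1a1 to Col5a3, the type IV chains and 4 of 5 type VI chains have their 3 points right of 0, while the replicate 2 points of Col27a1, Col9a3, Col16a1, Col17a1, Col8a1 and Col26a1 lie far from the other points of their gene.

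Among the 10 fibril-forming chains tested, 1 had an unadjusted p under 0.05 and the median log2 fold change was 0.45. That gene was Col27a1, a chain of thin cartilage fibrils, with 758, 461 and 723 normalized counts in shYthdf2 and 207, 506 and 256 in shCtrl. Replicate 2 of shCtrl stood above replicate 2 of shYthdf2, so the groups overlapped (log2 fold change 1.00, standard error 0.35, adjusted p = 0.175). DESeq2 gave it an adjusted p of 0.0486, and edgeR without shCtrl replicate 2 gave 0.0112, within a range of 1.07e-09 to 0.999 over 16 alternatives.

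Col1a1 had 1171, 3139.9 and 1212 normalized counts in shYthdf2 and 1102, 2798 and 1092 in shCtrl (log2 fold change 0.15, standard error 0.50, adjusted p = 0.897). Its sign turned when shYthdf2 replicate 2 or shCtrl replicate 1 or 4 was left out. Col1a2 had 1116, 2756 and 1194 against 766, 2128 and 742 (log2 fold change 0.48, standard error 0.50, adjusted p = 0.638). For both genes the replicate 2 libraries of both groups stood above all others, and within each number the shYthdf2 library was the higher one. Col3a1 had the same order, with 1315, 3374 and 1331 against 835, 2957 and 796 (log2 fold change 0.39, standard error 0.59, adjusted p = 0.749). Col1a2 and Col3a1 also took the opposite sign without shYthdf2 replicate 2.

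The type V chains, which start the assembly of type I fibrils, had log2 fold changes of 0.60 (Col5a1), 0.82 (Col5a2) and 0.48 (Col5a3), with adjusted p of 0.331, 0.44 and 0.497. Col5a2 had 259.7, 777 and 254 normalized counts in shYthdf2 and 157, 403 and 173 in shCtrl, and again replicate 2 was the highest library of each group. Col11a1 had 427, 311 and 381 against 302, 223 and 331, with shYthdf2 replicate 2 below shCtrl replicate 4 (log2 fold change 0.39, standard error 0.19, adjusted p = 0.314). Col11a2 was the one tested fibrillar chain with lower values after YTHDF2 KD. It had 444, 253 and 486 normalized counts against 741, 266 and 714 (log2 fold change -0.54, standard error 0.40, adjusted p = 0.5), and in replicate 2 the groups were nearly equal. Col2a1, the main chain of cartilage fibrils, had 88.6, 58.0 and 115 against 88.5, 39.6 and 66.8 (log2 fold change 0.42, standard error 0.37, adjusted p = 0.567).

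The type IV chains had 0 unadjusted calls among 5 tested, and log2 fold changes of 0.31 to 0.65. Col4a1 had 924, 2096 and 922 normalized counts in shYthdf2 and 764, 1473 and 768 in shCtrl (log2 fold change 0.39, standard error 0.39, adjusted p = 0.62), and Col4a2 had 703, 1721 and 723 against 636, 1012 and 559.9 (log2 fold change 0.51, standard error 0.39, adjusted p = 0.506). The members of the pair whose start regions share bases had their highest library in replicate 2 of each group, and the ratio of their levels stayed between 1.06 and 1.29.

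Col4a5 and Col4a6, the X-linked pair, are also head to head, with 1308 bases between them. Col4a5 had 202, 392 and 221 normalized counts against 146, 275 and 164 (log2 fold change 0.48, standard error 0.33, adjusted p = 0.47). Col4a6 had 72.0, 124 and 99.5 against 54.9, 79.2 and 53.7 (log2 fold change 0.65, standard error 0.28, adjusted p = 0.254), and its groups overlapped only through shYthdf2 replicate 1 and shCtrl replicate 2. The pair Col4a3 and Col4a4, chains of the kidney filter with 71 bases between their spans, held few counts. Col4a4 had 13.6, 6.77 and 12.7 against 8.85, 5.80 and 12.1 (log2 fold change 0.31, standard error 0.45, adjusted p = 0.744), and Col4a3 held 1 to 8 counts per library.

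Type VIII collagen, a short-chain network of vessels and the eye, held the member with the smallest p. Col8a1 had 80.3, 122 and 85.7 normalized counts in shYthdf2 and 55.7, 37.7 and 53.7 in shCtrl. The groups did not overlap, and replicate 2 had the widest gap (log2 fold change 0.97, standard error 0.27, adjusted p = 0.12, and adjusted p = 0.0369 in DESeq2, within 0.0148 to 0.962 over 16 alternatives). Col8a2 did not overlap either, with 39.6, 26.1 and 34.9 against 17.7, 23.2 and 25.2 (log2 fold change 0.61, standard error 0.30, adjusted p = 0.308). In all, 6 of 38 members (15.8%) had groups that did not overlap, against 26.0% of all genes tested, and the other 4 were Col6a6, Col9a1, Col9a2 and Col19a1.

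Of 5 type VI chains tested, 2 had an unadjusted p under 0.05, and the class median of 0.75 was above that of the members as a whole. Col6a3, the long chain of the type VI trimer, had 83.4, 135 and 75.2 normalized counts in shYthdf2 and 43.4, 75.4 and 35.1 in shCtrl, where the highest shCtrl and the lowest shYthdf2 library were level (log2 fold change 0.93, standard error 0.37, adjusted p = 0.217). Col6a6 had 20.9, 18.4 and 21.2 against 7.08, 13.5 and 5.48, a low gene whose groups did not overlap (log2 fold change 1.19, standard error 0.41, adjusted p = 0.166). For the more abundant Col6a1 the values were 351, 889.6 and 351 and 186, 615 and 241 (log2 fold change 0.61, standard error 0.53, adjusted p = 0.566), with the replicate 2 libraries above all others. Col6a2 had log2 fold change 0.75 and adjusted p = 0.41, and Col6a4 had 0.36 and 0.704.

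The fibril-associated class ranged from -0.63 to 0.87, and a median of 0.10 over 8 tested members. Col16a1 had 451, 381 and 477 normalized counts in shYthdf2 and 174, 385 and 156 in shCtrl (log2 fold change 0.87, standard error 0.34, adjusted p = 0.211). Col19a1, a collagen that neurons also make and that takes part in the formation of inhibitory synapses, had 466, 436 and 465 against 165, 393 and 209 (log2 fold change 0.83, standard error 0.30, adjusted p = 0.189). In both, shCtrl replicates 1 and 4 were low and shCtrl replicate 2 was close to the shYthdf2 level.

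Type IX collagen is built of the chains of Col9a1, Col9a2 and Col9a3, and their values differed in direction. Col9a1 had 157, 151 and 149 normalized counts in shYthdf2 and 90.2, 149 and 82.2 in shCtrl (log2 fold change 0.51, standard error 0.25, adjusted p = 0.31), where shYthdf2 replicate 4 was only just above shCtrl replicate 2. Col9a2 had 95.9, 65.8 and 84.7 against 139, 106 and 135 and was the one tested member lower in every shYthdf2 library than in any shCtrl library (log2 fold change -0.63, standard error 0.22, adjusted p = 0.183). Col9a3 had 553, 302 and 552 against 394, 612 and 351, and its replicate 2 ratio was opposite to the others (log2 fold change 0.051, standard error 0.29, adjusted p = 0.942). Of the rest of the class, Col12a1, found on fibrils of tendon and skin, had 1103, 919 and 1039.5 against 912, 968 and 893 (log2 fold change 0.14, standard error 0.11, adjusted p = 0.504), and Col20a1 had 387, 195 and 416 against 468, 118 and 460.2 (log2 fold change -0.068, standard error 0.51, adjusted p = 0.956). Col20a1 was low in both replicate 2 libraries. Col14a1 had log2 fold change -0.035 and adjusted p = 0.967.

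Col17a1, the transmembrane collagen of hemidesmosomes, had 130.4, 88.0 and 130.2 normalized counts in shYthdf2 and 37.2, 89.9 and 42.7 in shCtrl (log2 fold change 1.04, standard error 0.37, adjusted p = 0.186). As for Col27a1, Col16a1 and Col19a1, the 2 low values were those of shCtrl replicates 1 and 4. The other transmembrane members, Col13a1 of the neuromuscular junction and Col23a1, had log2 fold changes of 0.63 (adjusted p = 0.452) and 0.042 (adjusted p = 0.948). Of the multiplexins, Col18a1 had 909, 2198 and 915 against 702, 1444 and 613 (log2 fold change 0.54, standard error 0.44, adjusted p = 0.536), and Col15a1, low in all libraries, had -0.23 (adjusted p = 0.76). Col7a1, the chain of the anchoring fibrils under epithelia, had 0.21 (adjusted p = 0.728), Col26a1 0.60 (adjusted p = 0.471) and Col28a1, a collagen of peripheral nerve, 0.36 (adjusted p = 0.427).

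Replicate 2 was then compared with replicates 1 and 4 across both groups. It was singled out with earlier results of these data known, so the tests describe a difference already seen. In a fit with the group beside it, 18 of 38 members (47.4%) passed the adjusted threshold of 0.05, against 30.3% of all genes tested. Of these 14 were higher in replicate 2 (15.3% of all genes) and 4 lower (14.9%). The summed collagen level was 1.69 times the mean of replicates 1 and 4 in shYthdf2 and 1.75 times in shCtrl. With replicates 1 and 4 of each group summed, 0 of 40 members passed (0.00% of all genes), and 17 had an unadjusted p under 0.05 (20.8%). Of the 17, 14 were higher (9.81%) and 3 lower (11.0%), so the adjusted p-values given for replicate 2 rest on replicates 1 and 4 as separate libraries. At least 2-fold higher in both groups were 7 members (0.726% of all genes), namely Col1a1, Col1a2, Col3a1, Col5a2, Col6a1, Col6a2 and Col18a1, and 1 was at least 2-fold lower, Col20a1 (3.00%). For 13 members both replicate 2 libraries lay above the other 4 (20.1%) and for 6 below (20.7%).

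Chains of types I, III, V, IV and VI made up 12 of the 14 members that were higher. Of the fibril-forming chains, 6 of 10 were higher and 3 lower in replicate 2. Col3a1 had the largest difference of all members, 2.55-fold in shYthdf2 and 3.63-fold in shCtrl (log2 difference 1.61, standard error 0.11, adjusted p = 0.00203). Col5a2 followed with 3.03-fold and 2.44-fold (log2 difference 1.45, standard error 0.10, adjusted p = 0.00209). Col1a1 (2.63-fold and 2.55-fold, log2 difference 1.37, standard error 0.05, adjusted p = 0.000679) and Col1a2 (2.39-fold and 2.82-fold, log2 difference 1.38, standard error 0.072, adjusted p = 0.00122) had nearly equal differences. Col5a1 and Col5a3 had log2 differences of 0.76 and 0.93, with adjusted p of 0.0152 and 0.00312.

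The 3 fibrillar chains that were lower in replicate 2, Col2a1, Col11a1 and Col11a2, are those of the type II and type XI collagens of cartilage. Their log2 differences were -0.89 (adjusted p = 0.0259), -0.44 (adjusted p = 0.0234) and -1.16 (adjusted p = 0.00427). Col11a2 fell to 0.545 times the mean of replicates 1 and 4 in shYthdf2 and to 0.365 times in shCtrl.

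Type IV chains were higher in replicate 2 for 3 of 5 tested. Col4a1 was 2.27-fold higher in shYthdf2 and 1.92-fold in shCtrl (log2 difference 1.07, standard error 0.07, adjusted p = 0.00189), and Col4a2 2.41-fold and 1.69-fold (log2 difference 1.02, standard error 0.12, adjusted p = 0.00386). Col4a5 had a log2 difference of 0.86 (adjusted p = 0.00414) and its neighbour Col4a6 0.54 (adjusted p = 0.0682). Among type VI chains the 3 that form the common trimer were higher, Col6a1 by 1.43 (standard error 0.11, adjusted p = 0.00225), Col6a2 by 1.22 (adjusted p = 0.00294) and Col6a3 by 0.85 (adjusted p = 0.0143) on the log2 scale. Col6a4 and Col6a6 had -0.91 and 0.34, with adjusted p of 0.108 and 0.598.

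Of the rest, Col18a1 was 2.41-fold and 2.20-fold higher in replicate 2 (log2 difference 1.20, standard error 0.074, adjusted p = 0.00162) and Col23a1 was higher by 0.59 on the log2 scale (adjusted p = 0.0255). Col20a1 was the one fibril-associated member that passed, and it was lower, at 0.487 times the mean of replicates 1 and 4 in shYthdf2 and 0.254 times in shCtrl (log2 difference -1.47, standard error 0.22, adjusted p = 0.00611). None of the short-chain and anchoring members passed. The class medians were 0.84 for fibril-forming, 0.86 for type IV, 0.85 for type VI and -0.024 for fibril-associated chains, beside 0.01 for all genes.

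**Figure D3:**
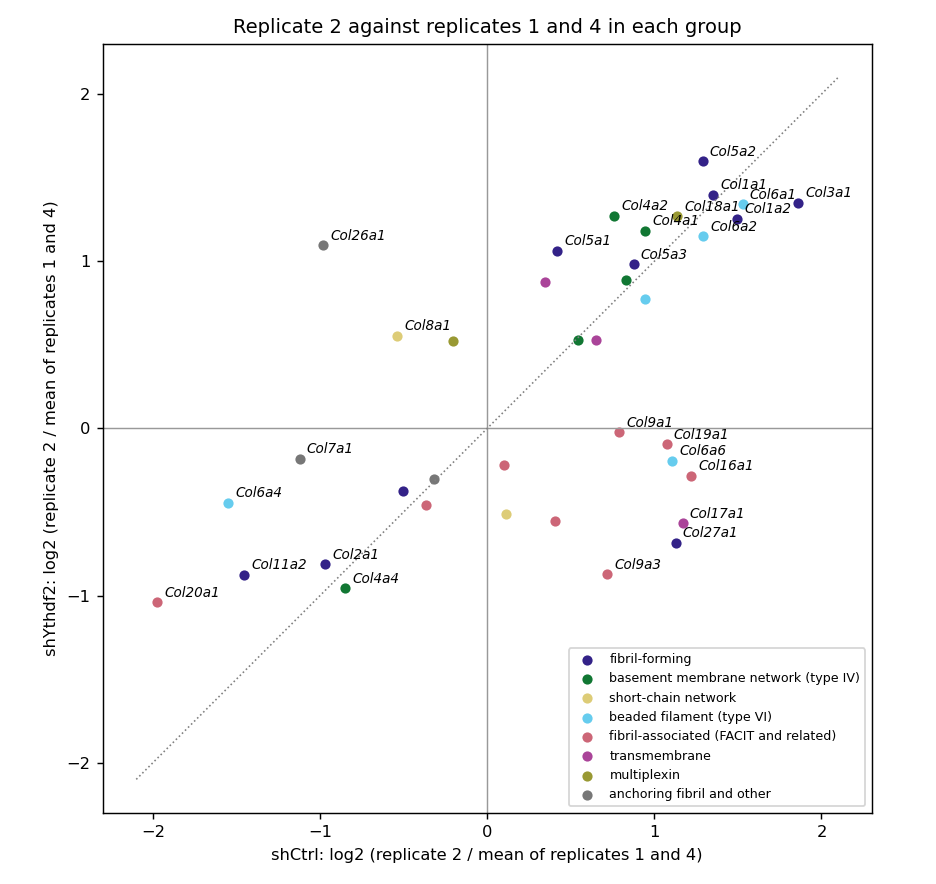
log2 ratio of replicate 2 to the mean of replicates 1 and 4 in shCtrl (x axis) and in shYthdf2 (y axis), 1 point per tested collagen gene, coloured by class, with the dotted line where both are equal. The upper right holds fibril-forming, type IV and type VI chains that were higher in replicate 2 of both groups, and the lower right holds genes higher in replicate 2 of shCtrl but not of shYthdf2, such as Col27a1, Col17a1, Col16a1, Col19a1 and Col9a3.

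Most tested markers of fibroblasts and meninges and of mural cells were also higher in replicate 2. The 11 fibroblast and meninges markers summed to 107, 163 and 106 CPM in shYthdf2 and 54.8, 134 and 57.0 CPM in shCtrl. Pdgfra, which is also in the oligodendrocyte list, was the most abundant of them in every library. The other 10, Dcn and Lum among them, summed to 39.4, 104 and 41.3 CPM and 33.9, 66.4 and 33.5 CPM, and replicate 2 was 2.58 and 1.97 times the mean of replicates 1 and 4. Of the 11 markers 10 were tested, and 8 were higher in replicate 2 (15.3% of all genes) and none lower (14.9%). Dcn, a proteoglycan that binds type I fibrils, had 147, 447 and 118 raw counts in shYthdf2 and 142, 290 and 109 in shCtrl. The 8 mural cell markers summed to 41.2, 84.6 and 42.2 CPM in shYthdf2 and 31.8, 59.4 and 34.5 CPM in shCtrl. Of 6 tested, 4 were higher in replicate 2 (15.3% of all genes) and none lower (14.9%). Pdgfrb, which is in the fibroblast list as well, was 1 of these 4. Endothelial markers were low, at 15.7, 26.2 and 14.2 CPM in shYthdf2 and 9.07, 14.1 and 8.75 CPM in shCtrl, and their defining gene Cldn5 was at 0 in 5 of 6 libraries and at 1 count in the other. Of 7 endothelial markers tested, 2 were higher in replicate 2 (15.3% of all genes) and none lower (14.9%). Their median log2 difference in replicate 2 was 0.077, beside 1.18 for fibroblast and meninges markers and 1.05 for mural markers. The part of these cells in the collagen differences was not tested.

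**Figure D4:**
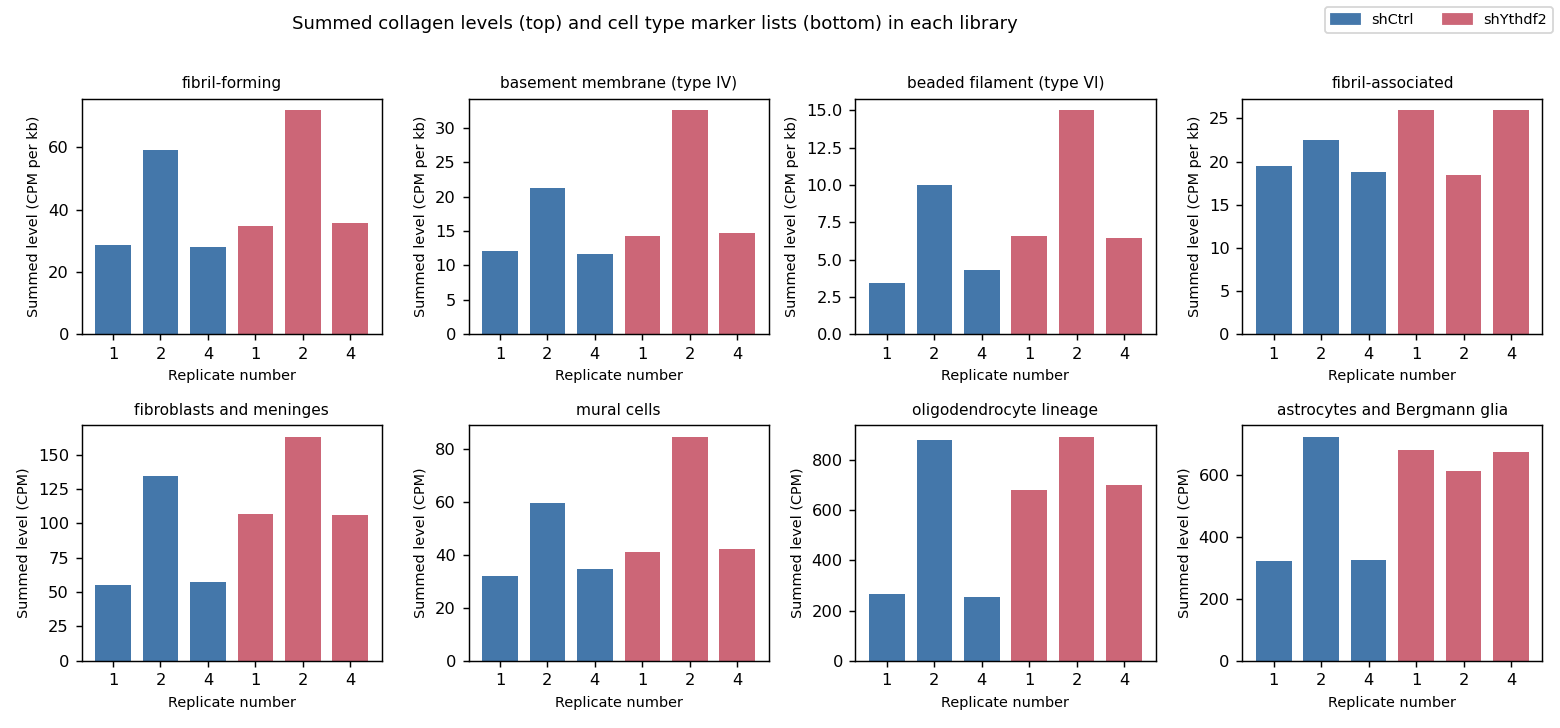
Summed level of 4 collagen classes (top, CPM per kilobase of exon) and of 4 marker lists (bottom, CPM) in each library, with blue bars for shCtrl and red bars for shYthdf2. Replicate 2 has the tallest bar of its group for fibril-forming, type IV and type VI chains and for fibroblast and mural markers, and shCtrl replicates 1 and 4 have the shortest bars for the oligodendrocyte and astrocyte markers.

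For some members the YTHDF2 KD difference itself depended on the replicate number. Among them Col1a2, Col3a1, Col5a1, Col11a2, Col4a2 and Col20a1 had also been called for replicate 2. The difference between the KD effect in replicate 2 and that in replicates 1 and 4 was tested as an interaction, a comparison chosen after the data had been seen, whose spread rests on 2 degrees of freedom from replicates 1 and 4, with the lone replicate 2 libraries assumed to vary alike. It passed the adjusted threshold for 16 of 38 members (42.1%), against 27.3% of all genes tested. The shYthdf2 to shCtrl ratio was shifted upwards in replicate 2 for 7 members (13.4% of all genes) and downwards for 9 (13.8%). DESeq2 called 8 members (11.4% of all genes).

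Of the 9, 5 were fibril-associated and 3 fibril-forming chains. Col27a1 had log2 ratios of shYthdf2 to shCtrl of 1.87, -0.13 and 1.50 in replicates 1, 2 and 4 (interaction -1.82, standard error 0.16, adjusted p = 3.41e-07). Col17a1 had 1.81, -0.03 and 1.61 (interaction -1.74, standard error 0.30, adjusted p = 0.000441), and Col16a1 had 1.37, -0.013 and 1.62 (interaction -1.50, standard error 0.16, adjusted p = 4.65e-06). In each, the groups differed by more than 2-fold in replicates 1 and 4 and were close to level in replicate 2. Col19a1 had 1.50, 0.15 and 1.15 (interaction -1.18, standard error 0.18, adjusted p = 0.000113), and Col9a3 changed sign, with 0.49, -1.02 and 0.65 (interaction -1.58, standard error 0.14, adjusted p = 5.56e-07). Smaller interactions of the same direction were those of Col9a1, -0.81, Col3a1, -0.51, Col12a1, -0.32, and Col1a2, -0.24.

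Shifted upwards in replicate 2, Col26a1 had log2 ratios of 0.067, 1.95 and -0.31 (interaction 2.06, standard error 0.38, adjusted p = 0.00067). Col8a1 had 0.53, 1.69 and 0.68 (interaction 1.09, standard error 0.33, adjusted p = 0.0208). Col7a1 had 0.055, 0.92 and -0.095 (interaction 0.94, standard error 0.18, adjusted p = 0.000881) and Col20a1 -0.27, 0.73 and -0.15 (interaction 0.94, standard error 0.18, adjusted p = 0.000954). The other 3 were Col5a1 (0.65), Col11a2 (0.58) and Col4a2 (0.52).

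Glial markers were low in the same libraries as Col27a1, Col16a1 and Col19a1. The 8 oligodendrocyte lineage markers summed to 681, 893 and 700.5 CPM in shYthdf2 and 264, 879.7 and 252 in shCtrl. In 8 of 8 tested the ratio of shYthdf2 to shCtrl was shifted downwards in replicate 2 at the adjusted threshold (13.8% of all genes). The 9 astrocyte and Bergmann glia markers summed to 679, 611 and 672 CPM in shYthdf2 and 322, 722 and 326 in shCtrl, with 6 of 9 in that direction (13.8%). The 6 microglia markers summed to 37.8, 15.1 and 39.3 CPM and 7.62, 27.6 and 7.01 CPM, with 4 of 5 in that direction (13.8%). In all of these lists shCtrl replicates 1 and 4 were the lowest libraries. Of 65 tested markers of all lists, 0 passed the adjusted threshold for YTHDF2 KD in edgeR (0.604% of all genes). An unadjusted p under 0.05 was reached by 9 (20.1% of all genes), 6 higher (9.50%) and 3 lower (10.6%). The part of glial cells in the collagen values was not tested.

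The 11 granule cell markers summed to 10217, 9843 and 10237 CPM in shYthdf2 and 10120.0, 10396 and 9992 CPM in shCtrl, sums in which Zic1 and Reln had the most counts. After YTHDF2 KD 3 of them were lower at an unadjusted p under 0.05 (10.6% of all genes) and 0 higher (9.50%). The 3 were Neurod1, Cbln1 and Barhl1, with log2 fold changes of -0.32, -0.64 and -0.61 and no overlap between the groups. Of the 11, 4 were higher (15.3% of all genes) and 2 lower (14.9%) in replicate 2. Higher in shYthdf2 and shCtrl were Gabra6 (2.54-fold and 2.88-fold), Cbln3 (2.31-fold and 6.40-fold), Slc17a7 (1.67-fold and 1.73-fold) and Etv1 (1.56-fold and 1.84-fold). Pax6 fell to 0.768 and 0.820 times, and Reln to 0.846 and 0.851 times. The 5 progenitor markers summed to 99.4, 125 and 103 CPM in shYthdf2 and 78.9, 111 and 74.5 CPM in shCtrl and the 4 Purkinje cell markers to 22.6, 33.0 and 21.7 CPM in shYthdf2 and 29.9, 29.8 and 29.2 CPM in shCtrl. The 3 ependymal and choroid plexus markers summed to 65.2, 25.1 and 70.2 CPM in shYthdf2 and 64.0, 16.4 and 68.1 CPM in shCtrl. The low sums of replicate 2 were those of Ttr, which had 706, 17 and 729 raw counts in shYthdf2 and 897, 28 and 810 in shCtrl, while Foxj1 had 423, 424 and 475 and 448, 258 and 355 and Folr1 53, 51 and 51 and 24, 35 and 10.

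The genes that make, cut, bind and break down collagen were described next, from 5 lists of 70 genes of which 65 were tested. After YTHDF2 KD 0 of them passed the adjusted threshold in edgeR, against 0.604% of all genes. In limma-voom 0 passed, and in DESeq2 3 did, 4.62% of the lists against 7.67% of all genes. The counts that follow are those of edgeR. An unadjusted p under 0.05 was reached by 10 (20.1% of all genes), 7 higher (9.50%) and 3 lower (10.6%). The median log2 fold change was 0.27. In replicate 2, 25 were higher (15.3% of all genes) and 8 lower (14.9%) at the adjusted threshold, 50.8% of the lists and 30.3% of all genes. With replicates 1 and 4 summed 0 of 67 passed (0.00% of all genes), with 30 at an unadjusted p under 0.05 (20.8%). The same shares of all genes apply to the counts within each list below. The count after YTHDF2 KD was 16 with the batch term (24.6% of the lists and 22.1% of all genes). It was 12 without shCtrl replicate 2 (18.5% and 18.3%) and 3 without shYthdf2 replicate 2 (4.62% and 4.70%). It was 2 with the replicate block (3.08% and 1.35%) and 0 of 67 with replicates 1 and 4 summed, where 2 had an unadjusted p under 0.05. Genes of these lists named for replicate 2 were chosen after their values were seen.

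Of 18 genes for chain modification and folding, 1 was higher and 2 lower at the unadjusted threshold. P3h4, which helps the hydroxylation of chains in the endoplasmic reticulum, had 125, 127 and 129 normalized counts in shYthdf2 and 219, 187 and 210.4 in shCtrl, without overlap and with little spread (log2 fold change -0.70, standard error 0.15, adjusted p = 0.0794). Its adjusted p was 0.0142 with the batch term, within 0.000131 to 0.993 over 16 alternatives. Mia3, needed to load procollagen into transport carriers, had 1985, 1889 and 2045 against 3101, 2003 and 3339.8 (log2 fold change -0.51, standard error 0.19, adjusted p = 0.186), with the shCtrl replicate 2 library at the shYthdf2 level. In replicate 2, 3 genes of this list were higher and 3 lower. Serpinh1, the collagen chaperone of the endoplasmic reticulum, was higher by 1.28 on the log2 scale (adjusted p = 0.0018), Fkbp10 by 0.99 and P4hb by 0.38. The lower ones were Plod3 (-0.45, adjusted p = 0.0486), P3h3 (-0.43, adjusted p = 0.0247) and Ppib (-0.32, adjusted p = 0.0199).

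Of 11 tested genes for propeptide removal and crosslinking, 0 passed the unadjusted threshold. Bmp1, the C-propeptidase, had 6233, 4494 and 6415 normalized counts against 4492, 4888 and 4429 (log2 fold change 0.31, standard error 0.15, adjusted p = 0.29), and Adamts14, an N-propeptidase, had 65.7, 124 and 74.1 against 46.9, 71.5 and 57.0 (log2 fold change 0.59, standard error 0.31, adjusted p = 0.338). In replicate 2, 5 genes of this list were higher and 0 lower, among them Pcolce, the enhancer of Bmp1, by 1.49 (adjusted p = 0.00657) and the lysyl oxidases Loxl1, by 1.38 (adjusted p = 0.0176), and Loxl2, by 1.19 (adjusted p = 0.00564), on the log2 scale.

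Among 11 tested receptors, 2 were higher and 1 lower at the unadjusted threshold after YTHDF2 KD. Adgrg1, the adhesion receptor that binds type III collagen in the developing cortex, had 2124, 2173 and 2192 normalized counts in shYthdf2 and 2889.6, 2274 and 2874 in shCtrl (log2 fold change -0.31, standard error 0.12, adjusted p = 0.198). All shYthdf2 libraries lay below all shCtrl libraries, by a small margin in replicate 2. Itga11, an integrin chain for fibrillar collagen, had 57.4, 93.8 and 55.0 against 34.5, 48.3 and 36.2 (log2 fold change 0.79, standard error 0.30, adjusted p = 0.205), also without overlap. Gp6, the platelet receptor, was at 0 in all libraries. In replicate 2, 4 receptors were higher and 2 lower, the latter being Itga2 (-1.35, adjusted p = 0.0186) and Itga10 (-0.83, adjusted p = 0.0217).

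The list of basement membrane and matrix partners had 3 of 17 genes higher at the unadjusted threshold and 0 lower. Lamc3, a laminin chain of the brain surface, had 58.4, 112 and 70.9 normalized counts against 24.8, 46.4 and 20.8 (log2 fold change 1.39, standard error 0.40, adjusted p = 0.124), and Lamb2 had 194, 219.5 and 182 against 134, 157 and 130.4 (log2 fold change 0.50, standard error 0.17, adjusted p = 0.164). Neither overlapped between the groups. In replicate 2, 9 of the 17 were higher and 2 lower, with Nid2, which links laminin to type IV collagen, at 1.23 (adjusted p = 0.00284) and Fn1 (fibronectin) at 0.96 (adjusted p = 0.00588). Agrn and Lama5 were the 2 lower ones, at -0.62 (adjusted p = 0.00238) and -1.02 (adjusted p = 0.0269).

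Of 8 tested proteases and inhibitors, 1 was higher after YTHDF2 KD at the unadjusted threshold, the metalloproteinase inhibitor Timp4, with 477, 312 and 496 normalized counts against 284, 224 and 267 (log2 fold change 0.73, standard error 0.21, adjusted p = 0.122) and no overlap. Timp2 had 2811, 2394 and 2679 against 1179, 3271 and 1174 (log2 fold change 0.49, standard error 0.39, adjusted p = 0.527), and here shCtrl replicates 1 and 4 were the lowest libraries, as for Col27a1, and shCtrl replicate 2 was the highest. In replicate 2, 4 genes of this list were higher and 1 lower. The gelatinase Mmp2 was higher by 1.53 (adjusted p = 0.00228) and the collagen-degrading cathepsin Ctsk by 1.06 (adjusted p = 0.00852) on the log2 scale. Timp4 was the lower one, at -0.47 (adjusted p = 0.0237).

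Chains of one trimer were compared as ratios of levels within a library. The size of a ratio depends on the length used and is no count of chains, while a change of length scales every library alike. Col1a2 has 12.426 kilobases of annotated exon and a longest transcript of 5.348. With longest transcripts the mean levels over all libraries were 15.6 for Col1a1 and 14.3 for Col1a2. Type I collagen holds Col1a1 and Col1a2 chains, and the ratio of their levels was 1.99, 2.16 and 1.92 after YTHDF2 KD and 2.72, 2.49 and 2.79 in shCtrl, 2.02 ± 0.121 against 2.67 ± 0.157 (SD, n = 3). The groups did not overlap (p = 0.1 in an exact two-sided permutation test, which cannot go lower with groups of 3, and 0.4 adjusted over 8 ratios by Benjamini-Hochberg). In each group replicate 2 was the library closest to the other group. The ratio of Col9a1 to Col9a2 was 1.00, 1.40 and 1.08 against 0.397, 0.855 and 0.372, again without overlap (exact p = 0.1, adjusted 0.4). The other 6 ratios overlapped between the groups. Col6a1 to Col6a2 ranged from 2.67 to 3.52, Col4a5 to Col4a6 from 2.64 to 4.12 and Col5a1 to Col5a2 from 0.932 to 1.89.

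Several members are neighbours in GRCm38. Col3a1 (chromosome 1 from 45311538 to 45349706) and Col5a2 (chromosome 1 from 45374321 to 45503282) lie tail to tail with 24614 bases between them, and had the 2 largest positive differences in replicate 2. Col6a2 and Col6a1 lie on 1 strand of chromosome 10 with Col18a1 beyond them, and all 3 were higher in replicate 2. Col9a1 (chromosome 1 from 24177610 to 24252684) and Col19a1 (chromosome 1 from 24261890 to 24587472) lie tail to tail with 9205 bases between them, and both had ratios shifted downwards in replicate 2. Col9a3 and Col20a1 are on 1 strand of chromosome 2 with 8 protein-coding genes between them, and their interactions had opposite signs (-1.58 and 0.94). Position was not tested as a cause.

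Since YTHDF2 binds m6A, the letters GGACT, a common form of the m6A motif, were counted in the longest annotated transcript of each member. The median was 1.71 per kilobase over the 38 tested members (quartiles 1.32 and 2.11) and 1.04 over 13720 tested protein-coding genes (quartiles 0.655 and 1.49). Col16a1 had the highest density, 4.03 per kilobase with 21 matches, and Col12a1 the lowest, 0.608 with 7. Among the abundant members, Col4a1 had 2.72 and Col3a1 0.719. A relation of this density to the difference after YTHDF2 KD was not tested. A match of letters is not a measured m6A site, and the collagen genes and all genes were not matched for base composition.

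Overlapping genes can touch the counts of several members, and those with the most counts are given here. The strand setting of the counting is not given in the sources used here, and reads of opposite genes can then not be told apart. BX649560.1, annotated on the same strand and overlapping Col20a1, held 271 to 347 counts beside 122 to 529 for Col20a1. Slc19a1, on the other strand of Col18a1, held 340 to 604 beside 559 to 2273. Tcfl5, on the other strand of Col9a3, held 15 to 36 beside 312 to 633, and Nt5dc1, on the other strand of the untested Col10a1, held 23 to 42 beside 1 to 4. The spans of Col4a1 and Col4a2 share 22 bases.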

How the data were processed

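RNA of 3 shYthdf2 and 3 shCtrl libraries of cultured mouse GCs was sequenced by the authors, who filtered reads, aligned them to GRCm38 with HISAT or TopHat2 and counted reads per Ensembl gene with HTSeq. The deposited values are raw counts per gene, not normalized. The submitters' processing notes instead list Bowtie 0.12.2 and mm9, and the strand setting is not given in the sources used here. Every library had 1 column in the table.

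Genes were filtered with filterByExpr (minimum count 10, minimum total 15), scaled by TMM and tested with edgeR 4.0.16 (quasi-likelihood test, unpaired, Benjamini-Hochberg over all 17214 genes, threshold 0.05) in R 4.3.3. DESeq2 1.42.0, limma 3.58.1 and the settings named in the closing section were alternatives. The code was checked on simulated counts. Libraries with the same number deviated together (Pearson's r of their deviations over genes 0.250, 0.361 and 0.305 for replicates 1, 2 and 4), so the replicate number was taken as a pairing in the blocked fit. Replicate 1 of one group with replicate 4 of the other also had positive r, 0.147 and 0.123. Replicate 2 with an unlike number had r of -0.314 to -0.248.

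The collagen genes, their classes, the partner and marker lists and the contrast with replicate 2 were chosen with earlier results of these data known. Values in every library are given for the 12 members with the smallest p after YTHDF2 KD, the 10 with the highest levels, the 6 with the largest replicate 2 difference and the 2 leading genes of each partner list; members outside the rule appear for their class. Promoter windows (250 bases before to 50 after a start) came from RefSeq on GRCm38.p6. Groups follow the library names, which the titles contradict.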

Additional observations from a re-analysis of the deposited data

Results flagged for a closer look

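For 16 collagen genes the log2 ratio of shYthdf2 to shCtrl in replicate 2 differed from that in replicates 1 and 4 at an adjusted p under 0.05 (edgeR interaction term), against 27.3% of all genes tested. The difference was -1.82 (Col27a1), -1.74 (Col17a1), -1.58 (Col9a3), -1.50 (Col16a1), -1.18 (Col19a1), -0.81 (Col9a1), -0.51 (Col3a1), -0.32 (Col12a1) and -0.24 (Col1a2) on the log2 scale for the members whose ratio was lower in replicate 2. It was 2.06 (Col26a1), 1.09 (Col8a1), 0.94 (Col20a1), 0.94 (Col7a1), 0.65 (Col5a1), 0.58 (Col11a2) and 0.52 (Col4a2) for those whose ratio was higher there. Of these, 8 also passed with DESeq2, namely Col3a1, Col27a1, Col9a3, Col16a1, Col19a1, Col20a1, Col17a1 and Col7a1.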

How the results depend on the processing

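The counts of collagen genes called after YTHDF2 KD rested on the treatment of replicate 2. The count of 0 became 2 with DESeq2 and 18 with a batch term for replicate 2, and ranged from 0 to 7 when 1 library was left out, with 7 without shCtrl replicate 2. Without replicate 2 of both groups it was 27. The partner count of 0 became 3 with DESeq2, 16 with the batch term and 2 with the replicate block, and ranged from 0 to 12 when 1 library was left out, with 12 without shCtrl replicate 2 and 3 without shYthdf2 replicate 2. Without replicate 2 of both groups it was 35, in a fit that called 52.7% of all genes. With replicates 1 and 4 summed both of these counts were 0. The replicate block left the collagen count at 0, and the cause of these shifts was not tested. The fits without replicate 2 of both groups and with summed replicates were chosen after seeing the data. The 18 members called in replicate 2 became 0 with replicates 1 and 4 summed, a fit with fewer libraries, with 17 at an unadjusted p under 0.05. Their number ranged from 13 to 27, and the 16 interactions from 15 to 16, when 1 library was left out, and the latter became 8 with DESeq2. With the longest transcript as length, the mean level of Col3a1 was 16.8 CPM per kilobase in place of 9.52, and that of Col1a2 14.3 in place of 6.17.

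Among single genes 25 values changed sign, none of them called in the main fit. Over the fits that left out 1 library or replicate 2, the log2 fold change after YTHDF2 KD was -0.49 to 0.75 for Col1a1, -0.22 to 1.30 for Col3a1, -0.016 to 1.03 for Col18a1, -0.12 to 0.78 for Col4a1, -0.049 to 0.81 for Col4a2 and -0.075 to 1.17 for Col1a2, each lowest without shYthdf2 replicate 2. It was -0.11 to 0.56 for Col9a3 and -0.48 to 0.20 for Col20a1. With replicates 1 and 4 summed Col9a3 had -0.21 and Col20a1 0.023, and Col20a1 had 0.067 with the batch term, 0.095 with limma-voom and 0.074 with the replicate block. The replicate 2 difference of Col9a3 was 0.026 without the filter and 0.70 within shCtrl, and -0.87 to 0.73 when 1 library was left out. Of the other values of single genes, 569 kept their direction and side of the threshold, 72 passed it only under an alternative, and 10 replicate 2 differences no longer passed with replicates 1 and 4 summed. Genes with few counts, such as Col4a4 with 6 to 13 counts per library, allow no firm statement.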
